A study of Bos taurus with 48 samples.

Results

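Skeletal muscle draws its energy from glucose, lactate, ketone bodies or fatty acids, and the share of each depends on age, activity and food supply. Long-chain fatty acids enter the fibre through CD36 at the cell surface, are carried in the cytoplasm by FABP3, the heart and muscle type fatty acid binding protein, and pass into mitochondria as carnitine esters that CPT1B makes and CPT2 converts back to acyl-CoA. Inside, ACADVL and ACADM start the oxidation of very long and medium chains, the trifunctional protein made of HADHA and HADHB completes the cycle for long chains, and ETFDH hands the electrons to the respiratory chain, while PDK4 switches off pyruvate dehydrogenase and so spares glucose when fat is burned.

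These 10 genes were chosen by name, from the gene label or description of each array probe, and not by their values. Earlier results of these data were known when they were chosen. The labels gave 11 probes for 9 of the 10 genes, and all 9 passed the filter on dim probes together with the rest of 14650 genes tested. FABP3 was not found by that rule, because its probe carries the label FABP, and was identified only through the transcript it was designed from. Its values are given beside those of the other 9 genes but it is left out of their counts.

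RNA of the longissimus muscle (LTL) from 35 cattle was measured on 48 arrays, each with 2 samples labelled with Cy3 and Cy5. The developmental series compared Piedmontese × Hereford with Wagyu × Hereford crosses at 60, 135 and 195 days of gestation, at birth and at 3, 7, 12, 20, 25 and 30 months. It comprised 12 fetuses (2 at 60 days, 1 per cross, then 5 and 5), 6 newborn calves (3 per cross) and 9 older animals. All older animals but GP273, measured at 7 months only, were sampled repeatedly, with 6 or 8 animals at each age. GP041A and GP041B, the 195-day Piedmontese cross samples, were counted as 2 fetuses, but the labels do not say whether they are 1 animal. With them as 1 animal, these genes kept their calls between fetal and post-natal animals and from 195 days to birth. In the diet series 4 Belmont Red animals labelled weight loss and 4 labelled growth were sampled at times 0, 1 and 2. All 8 were measured at time 0, 3 weight loss and 4 growth animals at time 1, and 2 of each at time 2. The labels do not give the days of these times. Each value below is a log2 signal averaged over the arrays of 1 animal, so a difference of 1 is a 2-fold difference, and levels of different genes are not compared because probes differ in brightness. Fetal and newborn samples shared slides, samples of 3 to 20 months shared other slides, and those of 25 and 30 months a further set, so the comparison of fetal with post-natal animals, the steps from birth to 3 months and from 20 to 25 months and the comparison of 3 with 30 months cannot be told apart from the slide sets. At each diet time, both diets were on the same slide.

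A single fetus stood apart. GP672, a 135-day Piedmontese cross fetus measured in 1 channel, had a mean level of 9.88 over 8 skeletal muscle fibre markers against 13.96 to 14.45 in the other fetuses of that age, and 12.98 over 6 adipocyte markers against 8.16 to 9.21. The 10 genes' results that rest on it are also given without it, a choice made after seeing the data. In a tissue sample, a lower signal can come from fewer cells of a type or from less RNA per cell, and these cannot be told apart.

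The gene identity of 3 probe sets matters for the results and the first 30 of each probe's 60 bases are shown, all in lower case. PDK4 has the widest range of all the genes described, CD36 is read by 2 probes that respond unequally, and the FABP3 probe is the one whose label is incomplete.
PDK4: tccagaaatttctgattgtcctttgctttc
CD36, probe A_73_103328: ttggtaactgctttgtttagatactaaaat
CD36, probe A_73_108146: tgctgctcaagtctggatatagataggccc
FABP3: gctactcctggactcggcaccagattgcct

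All 9 genes were higher in muscle of the post-natal animals (3 to 30 months) than in fetal muscle, by 1.43-fold for CPT2 to 25.6-fold for PDK4. Each post-natal animal entered with 1 value, the mean over its ages, and GP273 with its 7-month value alone. Of all genes tested, 38.5% were called higher in this comparison and the median difference was 0.022, against a median of 1.16 for the 9 genes. The same 9 were called higher without GP672, against 39.3% of all genes. These counts and medians describe the genes and do not set them apart from others of similar function.

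In the first step of the path, CD36 ranged from 7.59 through a median of 8.40 to 9.18 in the 12 fetuses, and from 9.09 through 9.22 to 9.35 in the 9 post-natal animals, so only GP672 reached the post-natal range. The difference was 0.82 (SE 0.14, adjusted p = 2.45e-05). The probe A_73_108146 gave 1.05 and A_73_103328 gave 0.59; the latter was well above background in 78 of 96 channels and in none of the 6 channels at 60 days. FABP3 ranged from 10.40 (median 10.76) to 11.38 in fetuses and from 13.29 (median 13.84) to 14.18 after birth, with no overlap. It was 7.74-fold higher post-natally (log2 difference 2.95, SE 0.14, adjusted p = 1.31e-13).

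The carnitine transferases rose less than FABP3. CPT1B, the muscle form of the enzyme that commits fatty acids to mitochondria, ranged from 9.64 (median 12.11) to 12.97 in fetuses and from 12.77 (median 13.09) to 13.42 post-natally. The groups overlapped through the 195-day fetuses, and the difference of 1.15 (SE 0.36, adjusted p = 0.00762) became 0.97 (adjusted p = 0.00507) without GP672, which had the lowest value. CPT2 ranged from 9.58 (median 10.30) to 11.31 in fetuses and from 10.09 (median 10.91) to 11.10 later, and differed by 0.51 (SE 0.15, adjusted p = 0.0054). The lowest later value of CPT2 was that of GP273, measured at 7 months only. CPT2 had the smallest difference of the 9, and its groups overlapped with and without GP672.

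Among the oxidation enzymes ACADM changed most. Its level ran from 9.32 (median 9.58) to 10.73 before birth and from 11.51 (median 12.44) to 12.70 after it, a gap with no overlap and a 6.77-fold difference (log2 2.76, SE 0.15, adjusted p = 1.59e-12). ACADVL ran from 12.27 (median 13.75) to 15.81 in fetuses and from 14.80 (median 15.15) to 15.28 in the older animals. The fetal maximum was again GP672, and the difference of 1.51 (SE 0.31, adjusted p = 0.000165) was 1.66 without it. HADHA and HADHB, the subunits of 1 enzyme complex, differed by 1.16 (SE 0.14, adjusted p = 3.59e-07) and 1.00 (SE 0.06, adjusted p = 1.02e-11). ETFDH differed by 1.19 (SE 0.08, adjusted p = 7.95e-11). HADHB and ETFDH were near background at 60 days, with 4 and 3 of 6 channels well above it. Over the alternative fits their differences ran from 0.59 to 1.75 and from 0.75 to 2.07, so their size is less firm than their direction. HADHA ran from 11.63 (median 12.02) to 13.18 in fetuses, where GP672 was highest, and from 13.06 (median 13.26) to 13.53 later. HADHB ran from 7.02 to 7.63 in fetuses and from 7.94 to 8.44 later, and ETFDH from 6.91 to 7.51 and from 8.05 to 8.70, so neither overlapped.

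PDK4 was at 6.99 to 8.15 in the 12 fetuses (median 7.57) and at 11.03 to 12.96 in the 9 older animals (median 12.13). Each older animal's value, a mean over its ages, lay above every fetus, and the difference was 4.68 (SE 0.19, 95% interval 4.28 to 5.08, adjusted p = 1.78e-14). At 25 months alone the mean of the animals was 10.18, below the lowest of these values. Fetal and post-natal animals did not overlap for 4 of the 9 genes (ACADM, ETFDH, HADHB and PDK4) and for 7 of 9 without GP672, against 40.8% and 43.8% of all genes. When newborn calves were counted with the fetuses, 6 of the 9 stayed called, and ACADVL (0.82, adjusted p = 0.0893), CPT1B (0.44, adjusted p = 0.416) and PDK4 (2.15, adjusted p = 0.141) did not. The share of all genes called in that fit is not given, so this count has no reference.

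**Figure D1:**
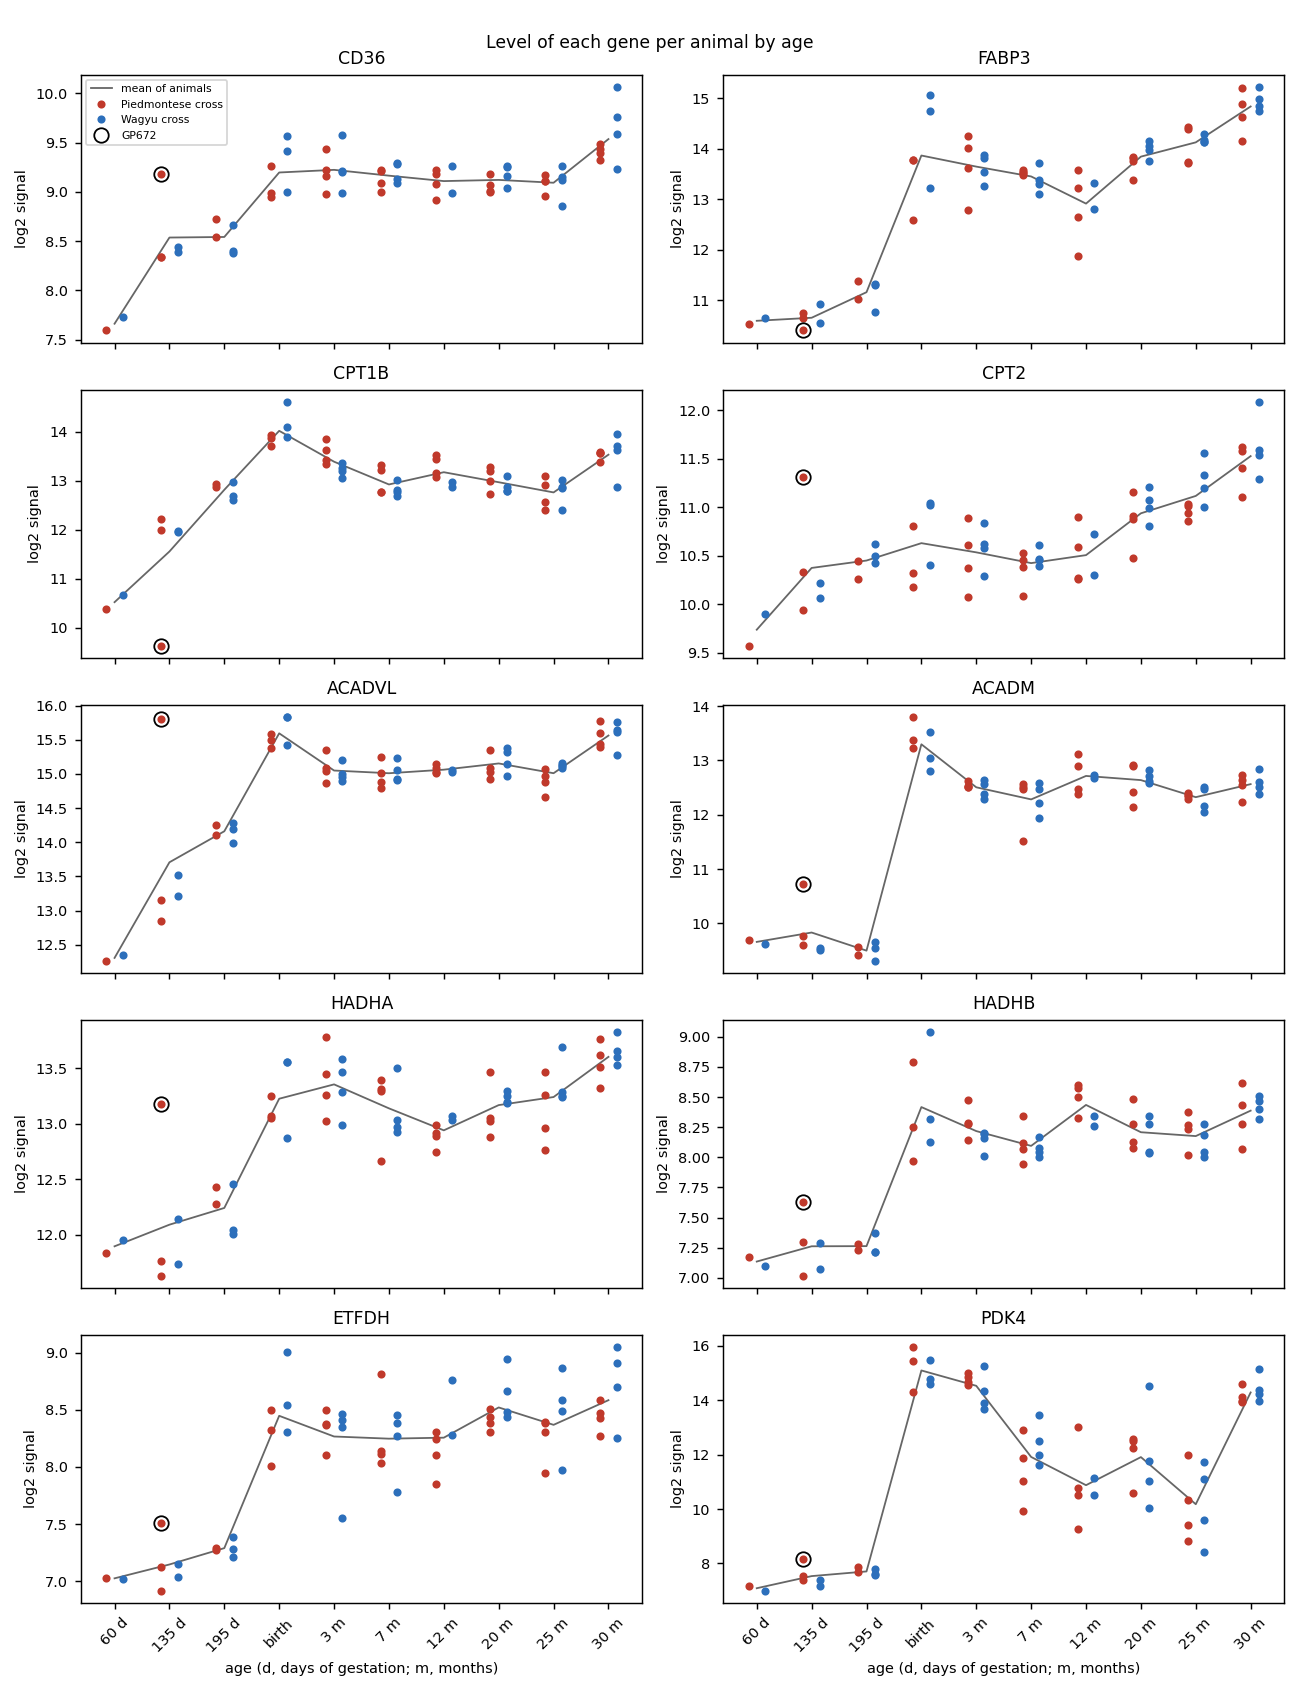
Level of each gene in each animal (log2 signal, 1 panel per gene) against age, from 60 days of gestation to 30 months, with Piedmontese crosses in red, Wagyu crosses in blue, the mean of the animals as a line and GP672 circled. PDK4 steps from a mean of 7.71 at 195 days to 15.09 at birth, falls to 10.18 at 25 months and returns to 14.29 at 30 months, while FABP3 and ACADM step up at birth and stay high.

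Markers of other cell types also differed between fetal and post-natal samples. The 8 measured skeletal muscle fibre markers had a median difference of 2.07 (5 higher, 0 lower), with animal means of 9.88 to 15.94 in fetuses and 15.71 to 16.75 later. Myoblast and fetal fibre markers had 6 of 7 lower and a median of -5.72, fibroblast markers had 6 of 6 lower and a median of -1.88, and adipocyte markers had 3 of 6 higher and a median of 0.98. The part of these shifts in the 9 genes' differences was not tested.

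Between 195 days of gestation and birth, where fetuses and calves shared slides, 8 of the 9 genes rose (35.4% of all genes did). The same number rose with slide as a block. For PDK4, ACADM, FABP3, HADHA, HADHB and ETFDH, most of the change in mean from 60 days to birth lay in this step. For CPT1B, ACADVL, CD36 and CPT2 the means rose more before 195 days. For CD36 this held for probe A_73_108146, with 1.46 and 0.03 in the steps up to 195 days and 0.98 at birth. It did not hold for the dimmer A_73_103328, with 0.29, -0.04 and 0.34. CPT1B went from 10.52 at 60 days to 12.81 at 195 days and 14.01 at birth. PDK4 was at 7.59, 7.61, 7.70, 7.78 and 7.86 in the 5 fetuses of 195 days and ran from 14.31 (median 15.11) to 15.95 in the 6 newborn calves. The calves were 167-fold higher (log2 7.38, SE 0.62, adjusted p = 1.58e-15; the 95% interval of the fold was 70.0 to 396). PDK4 is near background in the fetus, with 4 of the 6 channels at 60 days well above it, and plain background subtraction gave 8.25 for this step.

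The other genes rose less at birth. ACADM was at 9.32 to 9.65 at 195 days and at 12.80 to 13.80 at birth, a 13.7-fold rise with no overlap (log2 3.77, SE 0.16, adjusted p = 1.3e-27). FABP3 rose 6.61-fold (2.73, SE 0.25, adjusted p = 2.73e-14), from 10.78 to 11.38 in fetuses to 12.58 to 15.08 in calves. ACADVL, CPT1B, ETFDH, HADHB, HADHA and CD36 rose by 1.44, 1.21, 1.16, 1.15, 0.98 and 0.66, and every one of these differences had an adjusted p of 6.48e-06 or below. For ETFDH and HADHB, dim in the fetus, the alternative fits gave 1.07 to 1.90 and 1.02 to 1.93. CPT2 differed by 0.20 (95% interval -0.14 to 0.53, adjusted p = 0.294).

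Cell type markers moved in the same step. Myoblast and fetal fibre markers were lower at birth in 7 of 7 cases (median -5.03), endothelial markers in 7 of 8 (median -1.36), fibroblast markers in 5 of 6 (median -1.58), and cycling cell and erythroid markers in 4 of 5 and 4 of 6, against 31.1% of all genes. Slow oxidative fibre markers were higher in 4 of 7 cases and lower in 1 (median 1.02), and skeletal muscle fibre markers higher in 3 of 8 (median 0.54). The part of these shifts in the genes' step at birth was not tested.

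**Figure D2:**
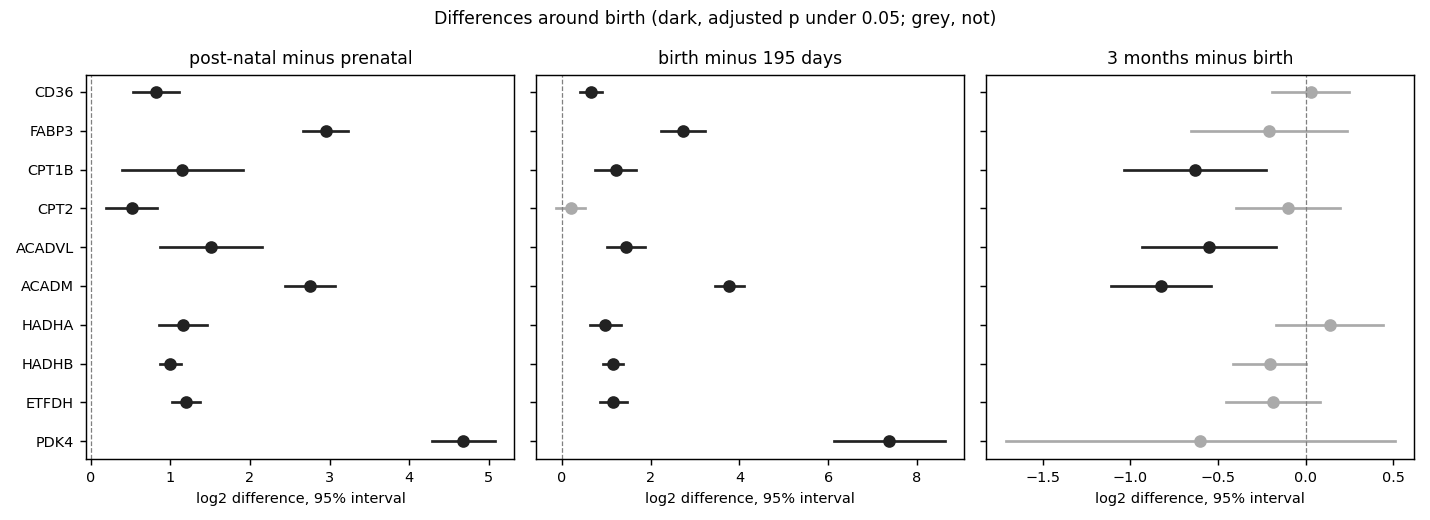
Log2 differences with their 95% intervals for each gene in 3 comparisons, post-natal minus prenatal, birth minus 195 days and 3 months minus birth, each panel on its own scale, dark where the adjusted p was under 0.05 and grey where it was not. The step at birth was 7.38 for PDK4, 3.77 for ACADM and 2.73 for FABP3, and CPT2 is the grey point at 0.20.

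Before 195 days a few of the genes already moved. Between 60 and 135 days, with 2 and 5 fetuses, ACADVL (1.40, adjusted p = 0.00037), CPT1B (1.04, adjusted p = 0.0153), CD36 (0.88, adjusted p = 9.53e-05) and CPT2 (0.65, adjusted p = 0.0422) rose, which is 4 of 9 against 7.99% of all genes. Without GP672 there were 3 (9.85% of all genes): CPT1B at 1.52, ACADVL at 0.88 and CD36 at 0.71, while CPT2 was at 0.41 (adjusted p = 0.172). The CPT1B call was also lost when GP663, GW911 or GP921 was left out, at 0.92, 1.16 and 0.86, and with median centring neither ACADVL (1.07) nor CPT1B (0.76) was called. In this step the CD36 probes A_73_108146 and A_73_103328 gave 1.46 and 0.29. Between 135 and 195 days CPT1B rose by 1.24 (adjusted p = 6.95e-05), 1 of 9 against 12% of all genes, and without GP672 ACADVL (0.96), CPT1B (0.76) and HADHA (0.44) rose, 3 of 9 against 10.9%. PDK4 and ACADM did not pass the test in either step, at 0.44 and 0.18 for PDK4 and 0.16 and -0.30 for ACADM. All ages shared 1 estimate of the spread per gene. For PDK4 the SD of the animals was 0.11 at 195 days but 1.40 at 20 months. A small fetal change of PDK4 could therefore hardly pass, and its absence is not shown.

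After birth the genes parted. From birth to 3 months ACADM (-0.82, adjusted p = 3.3e-06), CPT1B (-0.63, adjusted p = 0.00809) and ACADVL (-0.55, adjusted p = 0.0145) fell, 3 of 9 against 25.2% of all genes, and PDK4 differed by -0.60 (95% interval -1.71 to 0.51, adjusted p = 0.381). The other 5 genes differed by -0.21 to 0.14. With each array and dye centred on its median instead, ACADM alone kept its call, with CPT1B and ACADVL both at -1.08.

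From 3 months on, the mean level of PDK4 moved more between ages than that of any other gene tested. Its level ran from 13.69 (median 14.61) to 15.26 at 3 months, from 9.95 (median 11.93) to 13.45 at 7 months, from 9.28 (median 10.66) to 13.02 at 12 months and from 10.05 (median 12.00) to 14.53 at 20 months. It ran from 8.41 (median 9.96) to 11.99 at 25 months and from 13.92 (median 14.17) to 15.13 at 30 months. By mean level the ages fell into a high set (birth, 3 and 30 months) and a lower and more scattered set (7 to 25 months). The 30-month and 7-month ranges, neighbours in this order, did not overlap, and each pair of neighbours within a set overlapped. The sets themselves were not separate, as the 20-month range reached 14.53, above the lowest values at 3 months (13.69) and 30 months (13.92). The highest and lowest post-natal age means were 4.35 apart, and 0% of the 14650 genes had a wider gap (median 0.35).

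The same animals carried these steps. From 3 to 7 months PDK4 was lower in 7 of 7 animals, with changes of -4.62 to -1.39, and the fitted change was -2.56 (SE 0.43, adjusted p = 2.38e-05). From 20 to 25 months it was lower in 6 of 8 animals and the fitted change was -1.73 (SE 0.43, adjusted p = 0.00429). From 25 to 30 months it was higher in 8 of 8 animals, by 2.49 to 5.55, a 17.3-fold rise (log2 4.11, SE 0.43, adjusted p = 1.76e-10). The steps from 7 to 12 months (-1.19, adjusted p = 0.0743) and 12 to 20 months (1.13, adjusted p = 0.0923) did not pass. The mean at 30 months was not told apart from that at 3 months (-0.24, 95% interval -1.10 to 0.61).

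**Figure D3:**
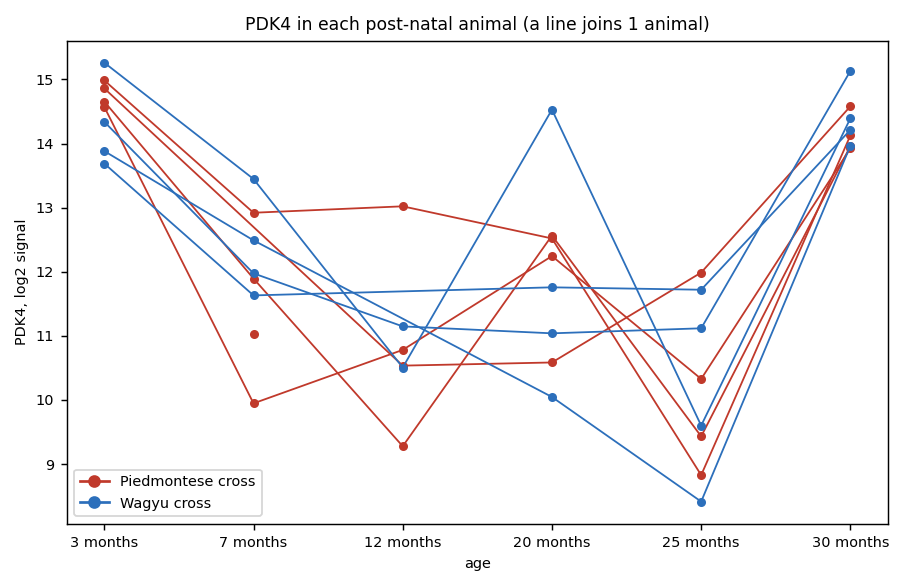
PDK4 level (log2 signal) in each of the 9 post-natal animals against age from 3 to 30 months, with a line joining the values of 1 animal, Piedmontese crosses in red and Wagyu crosses in blue. All 7 animals measured at both 3 and 7 months fall between these ages, and all 8 measured at both 25 and 30 months rise. Between 7 and 25 months the animals cross over each other from 8.41 to 14.53. GP273 was measured at 7 months only.

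The step from 25 to 30 months, within 1 slide set, took most of the path with it. PDK4, CPT1B (0.77, adjusted p = 0.000204), ACADVL (0.55, adjusted p = 0.00448), CD36 (0.44, adjusted p = 8.44e-05), CPT2 (0.41, adjusted p = 0.00625), HADHA (0.36, adjusted p = 0.0199) and HADHB (0.21, adjusted p = 0.0474) rose, 7 of 9 against 12.5% of all genes. FABP3 rose by 0.71 (adjusted p = 0.0015), and ETFDH (0.22, adjusted p = 0.127) and ACADM (0.24, adjusted p = 0.111) did not pass. With slide as a block 8 of 9 rose, ACADM included (adjusted p = 0.0163). CPT1B ran from 12.40 (median 12.86) to 13.08 at 25 months and from 12.86 (median 13.57) to 13.95 at 30 months, so these ranges still overlapped, as did those of CD36 (8.86 to 9.26 and 9.23 to 10.07).

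At 30 months 1 animal, GW179, had the highest mean over adipocyte markers, 13.12 against 9.49 to 11.80 in the others. Without its 30-month value, a check added after seeing the data, 6 of 9 rose and HADHB did not pass (0.21, adjusted p = 0.0693). The share of all genes is not given for this fit or for the fit with slide as a block. HADHA lost its call when GP130 (0.35), GP285 (0.32) or GW169 (0.32) was left out, and HADHB when any of several animals was. Centring each array on its median moved the all-gene median of this step by 0.46, more than CD36, CPT2, HADHA and HADHB differed. With that centring 9 of 9 rose, against 54.4% of all genes.

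Smaller post-natal changes were spread over single genes. CPT1B fell from 3 to 7 months (-0.46, adjusted p = 0.0336), which with PDK4 makes 2 of 9 lower against 8.56% of all genes, but the CPT1B call was lost when any of 7 single animals was left out (-0.48 to -0.43). From 7 to 12 months ACADM (0.39, adjusted p = 0.0201) and HADHB (0.33, adjusted p = 0.00721) rose, 2 of 9 against 9.61%, and with median centring ACADM was at -0.025 and not called. From 12 to 20 months CPT2 rose (0.39, adjusted p = 0.0242), 1 of 9 against 6.35%, and FABP3 rose by 0.89 (adjusted p = 0.000524). From 20 to 25 months ACADM fell with PDK4 (-0.31, adjusted p = 0.0461), 2 of 9 against 7.68%, and the ACADM call was lost when any of 7 single animals was left out (-0.33 to -0.28).

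CPT2 and FABP3 ended the post-natal span above its start, with means at 7 and 12 months below that at 3 months. Mean CPT2 was 10.54, 10.42 and 10.51 at 3, 7 and 12 months and mean FABP3 was 13.65, 13.45 and 12.92. CPT2 was highest at 30 months, from 11.11 (median 11.56) to 12.08, against 10.07 (median 10.60) to 10.89 at 3 months, with no overlap of these ages and a difference of 0.99 (adjusted p = 4.5e-10). FABP3 ran from 12.79 (median 13.72) to 14.26 at 3 months and from 14.16 (median 14.87) to 15.23 at 30 months and rose by 1.19 (SE 0.17, adjusted p = 1.1e-07). CPT2, ACADVL (0.51), ETFDH (0.32) and CD36 (0.31) were higher at 30 than at 3 months, 4 of 9 against 20.4% of all genes, and ETFDH was not called without GW169 (0.26). Between these ages adipocyte markers were higher in 6 of 6 cases (median 1.99), with animal means of 7.98 to 9.32 at 3 months and 9.49 to 13.12 at 30 months. Endothelial markers were lower in 6 of 8, erythroid markers in 4 of 6 and cycling cell markers in 3 of 5, against 20.5% of all genes, and of skeletal muscle and slow oxidative fibre markers 0 were called. The part of these shifts in the 4 genes' differences was not tested. When the ages were ordered by mean level, 195 days lay among the post-natal ages for CPT2 and CPT1B, and for CPT2 the ranges of all neighbouring ages down to 135 days overlapped. For the other 7 genes and FABP3 the lowest post-natal age and the highest fetal age by mean did not overlap. For ACADVL, CD36 and HADHA that fetal age was 195 days. At 135 days GP672 reached 15.81, 9.18 and 13.18 for these genes, within or above the range of the post-natal animals.

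The crosses were not told apart in these genes. limma called 0 of 9 between Piedmontese and Wagyu crosses before and at birth (0% of all genes) and 0 of 9 after birth (0.00683%), and at an unadjusted p under 0.05 the count was 0 of 9 in both, against 4.46% and 4.76% of all genes. The differences ran from -0.30 to 0.27 before and at birth and from -0.18 to 0.13 after it. Their 95% intervals reached from -0.85 to 0.73 and from -0.82 to 0.57, the outermost limits over the 9 genes.

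The other genes of fuel use, in lists chosen by function, rose in the same comparison of post-natal with fetal muscle in unequal shares, where 38.5% of all genes rose and 35.8% fell. Respiratory chain genes rose in 17 of 17 cases (median 1.32; CYCS, cytochrome c, 2.88), and citric acid cycle genes in 16 of 17 (median 1.51; MDH2, malate dehydrogenase, 2.84). Of 11 genes of pyruvate entry 9 rose (median 1.89), among them DLAT (2.82), PDHX (2.37) and DLD (2.21), which are parts of the pyruvate dehydrogenase complex that PDK4 inhibits, and the kinase PDK2 (2.01). Of 20 genes of glucose uptake and glycolysis 10 rose and 7 fell (median 0.71), with PKM, pyruvate kinase, at 3.68, and SLC2A4, the insulin-responsive glucose transporter, at 2.75.

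On the fatty acid side, of 21 other mitochondrial oxidation genes 15 rose and 1 fell (median 0.75), led by ETFA (2.08), ECI2 (2.06) and ACADS (1.68). ETFA encodes a subunit of the electron carrier that ETFDH accepts from, and ACADS the short-chain counterpart of ACADM. Of 13 peroxisomal genes 11 rose and 1 fell (median 1.31; PHYH 3.70, AMACR 2.20, ACOX2 2.03). In the carnitine shuttle 6 of 9 rose and 0 fell (median 0.67): CRAT, carnitine acetyltransferase, by 3.95, SLC25A20, the carnitine carrier of the inner membrane, by 2.30 and MLYCD, which removes the malonyl-CoA that inhibits CPT1, by 2.01. Uptake and activation genes were mixed, with 6 of 13 higher and 4 lower (median 0.14). LPL, which frees fatty acids from circulating lipoproteins, rose by 2.21, the acyl-CoA synthetase ACSL1 by 1.70 and ACSS1 by 1.34.

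Lipid droplet and triglyceride breakdown genes rose in 5 of 8 cases and fell in 2 (median 0.70; ABHD5 1.59, PNPLA2 1.36, PLIN2 -1.25). With newborn calves counted as fetuses, 2 of these 8 lipid droplet genes and 4 of the 9 carnitine shuttle genes rose. The share of all genes is not given for that fit. Of 21 regulators 12 rose and 1 fell (median 0.54). LPIN1 rose by 3.69, ANGPTL4, a fatty acid responsive inhibitor of LPL, by 3.48 and the nuclear receptor ESRRA by 2.64, while the difference of PPARA was 0.22 (adjusted p = 0.0613) and that of PPARD 0.014 (adjusted p = 0.738).

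From 25 to 30 months the direction of several lists depended on the scaling of the arrays. With arrays scaled to a common distribution, respiratory chain genes fell in 10 of 17 cases and rose in 0 (median -0.24), citric acid cycle genes fell in 4 of 17 and rose in 0, against 10% of all genes that fell, and SLC2A4 differed by -1.07. With each array and dye centred on its median, respiratory chain genes instead rose in 16 of 17 cases and citric acid cycle genes in 15 of 17, against 54.4% of all genes, and SLC2A4 differed by -0.0066. Lipid droplet and triglyceride breakdown genes rose in 4 of 8 cases (7 of 8 with median centring) and 0 fell. Among those that rose was the hormone-sensitive lipase LIPE (1.30). With plain background subtraction, or without the 30-month value of GW179, 3 of 8 rose. In the carnitine shuttle 4 of 9 rose and 1 fell (6 and 1 with median centring), with MLYCD at 1.80 and CPT1A, the liver type of CPT1, at 1.73. With arrays scaled to a common distribution, 12.5% of all genes rose. That share is not given for plain subtraction or without GW179. ANGPTL4 rose by 2.48.

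**Figure D4:**
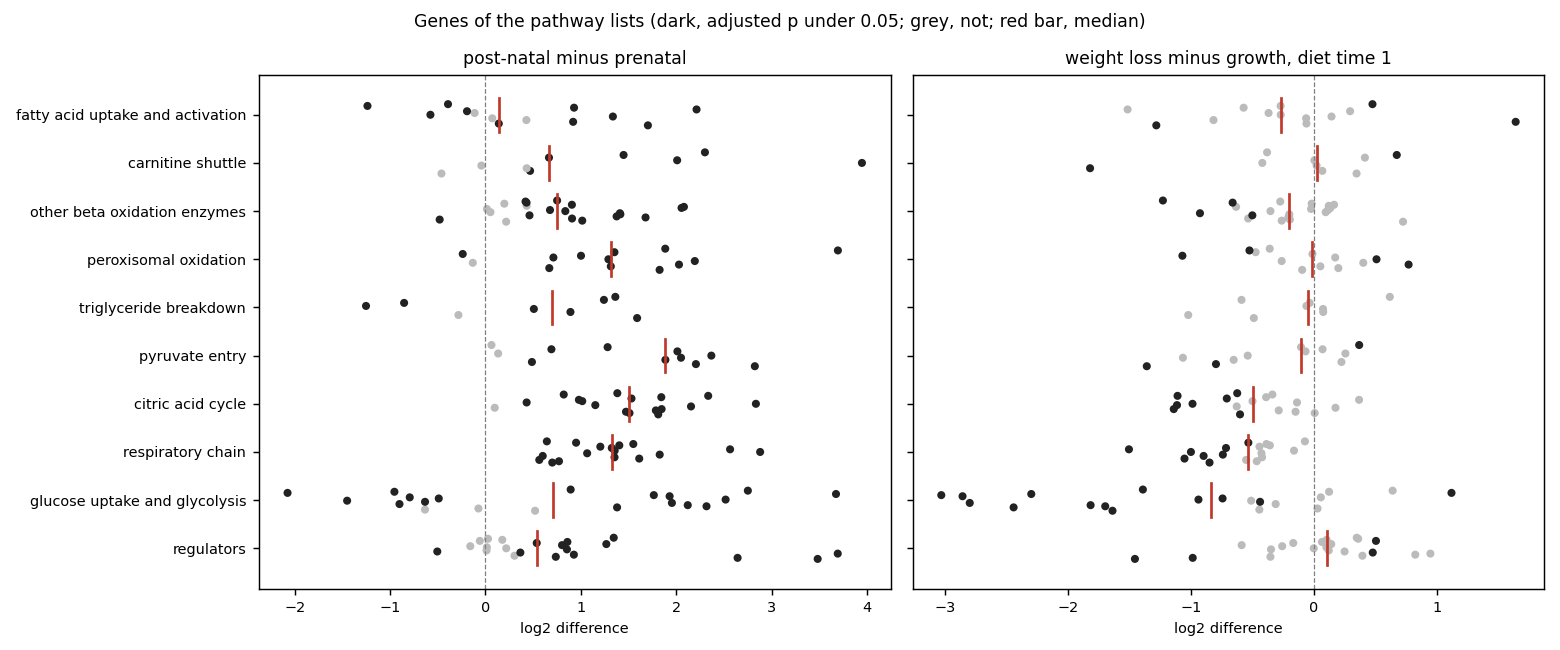
Log2 difference of each measured gene in 10 of the pathway lists, post-natal minus prenatal on the left and weight loss minus growth at diet time 1 on the right, dark where the adjusted p was under 0.05 and grey where it was not, with a red bar at the list median. Respiratory chain genes lie at positive values on the left, with a median of 1.32, and glycolysis genes have a median of -0.84 on the right.

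Across the 26 conditions, the genes with the profile closest to PDK4 by Pearson correlation of condition means were SLC43A2 (0.961), MLYCD (0.958) and GLUL, glutamine synthetase (0.952). Those closest to the mean of the other 8 genes were MAPKAPK3 (0.973), a transcript labelled hmm192924 in the files (0.971) and CRAT (0.971). Among the other genes, with FABP3 included, pairs correlated at 0.582 to 0.949 (median 0.790, 36 pairs), and with PDK4 at 0.553 to 0.872 (9 pairs). The condition means share arrays and animals, and all of them carry the step at birth.

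The diet comparison asked whether the animals labelled weight loss differed from those labelled growth. At time 1 CPT2 was the only one of the 9 genes called, lower in weight loss animals, against 8.83% of all genes called lower. It was at 10.34, 10.23 and 10.32 in the 3 weight loss animals and at 10.85, 11.11, 11.03 and 11.05 in the 4 growth animals. The groups did not overlap and the growth animals were 1.67-fold higher (log2 -0.74 for weight loss minus growth, SE 0.18, adjusted p = 0.0103). The call was lost without animal RL27 (-0.67, adjusted p = 0.0618) and with median centring (-0.48, adjusted p = 0.119).

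FABP3 had the larger diet difference. At time 1 it was at 11.41, 11.50 and 10.42 in weight loss animals and at 13.04, 13.58, 13.11 and 12.88 in growth animals. Every growth animal was above every weight loss animal, by 4.05-fold on the fitted means (log2 -2.02, SE 0.26, adjusted p = 0.000291). At time 0 the levels overlapped, at 12.92, 12.56, 12.45 and 12.84 against 12.69, 13.07, 12.60 and 13.26, and at time 2 they were 12.10 and 12.13 against 12.29 and 12.94. The difference between the diets became lower from time 0 to time 1 by -1.81 (SE 0.33, adjusted p = 0.00609), and from time 1 to time 2 it moved back by 1.49 (SE 0.40), which did not pass (adjusted p = 0.0698).

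HADHA at time 1 was at 12.74, 12.67 and 12.09 against 12.93, 13.75, 13.17 and 13.01, which did not overlap but did not pass (-0.71, adjusted p = 0.0976). CPT2 and HADHA were the 2 of 9 without overlap at this time, against 28.5% of all genes. The other genes at time 1 had overlapping groups, and CPT1B, CD36, ACADM, ACADVL, HADHB and ETFDH differed by 0.26, 0.24, -0.046, -0.19, -0.21 and 0.021, with 95% intervals between -0.66 and 0.69.

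PDK4 was lower in weight loss animals already at time 0, where it was at 13.19, 13.86, 14.29 and 14.19 against 15.32, 15.53, 14.86 and 15.41. Its groups did not overlap there (9.46% of all genes at that time), but the difference of -1.40 (SE 0.50) did not pass over all genes (adjusted p = 0.144). At time 1 it was at 15.14, 13.75 and 11.60 in RL24, RL27 and RL671 and at 14.38 to 15.46 in the growth animals, so 1 weight loss animal was within the growth range and another far below it. The difference of -1.26 (adjusted p = 0.122) was -2.18 without RL24 (adjusted p = 0.0155) and -0.39 when the time 1 value of RL671 was left out (adjusted p = 0.54). At time 2 the values were 14.24 and 14.62 against 14.91 and 15.09.

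At time 0, limma called 0 of the 9 genes (3.57% of all genes in either direction), and at an unadjusted p under 0.05 the count was 2, PDK4 and ACADVL (-0.46, adjusted p = 0.182). When the animal RL671 was left out of the diet series altogether, PDK4 was called at time 0 (-1.44, adjusted p = 0.0402). At time 2, with 2 animals per diet, 0 of 9 were called (0% of all genes), 0 at an unadjusted p under 0.05 (1.54% of all genes), and CPT1B, ETFDH, HADHB and PDK4 were the 4 of 9 without overlap, against 29.7%. The change of the diet difference from time 0 to time 1 was called for CPT2 (-0.79, SE 0.22, adjusted p = 0.0363), 1 of 9 against 5.18% of all genes lower. That call was lost when any of 7 of the 8 animals was left out (-0.98 to -0.71). The changes from time 0 to 2 and from time 1 to 2 gave 0 of 9 (0% and 1.92% of all genes), and at an unadjusted p under 0.05 also 0.

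**Figure D5:**
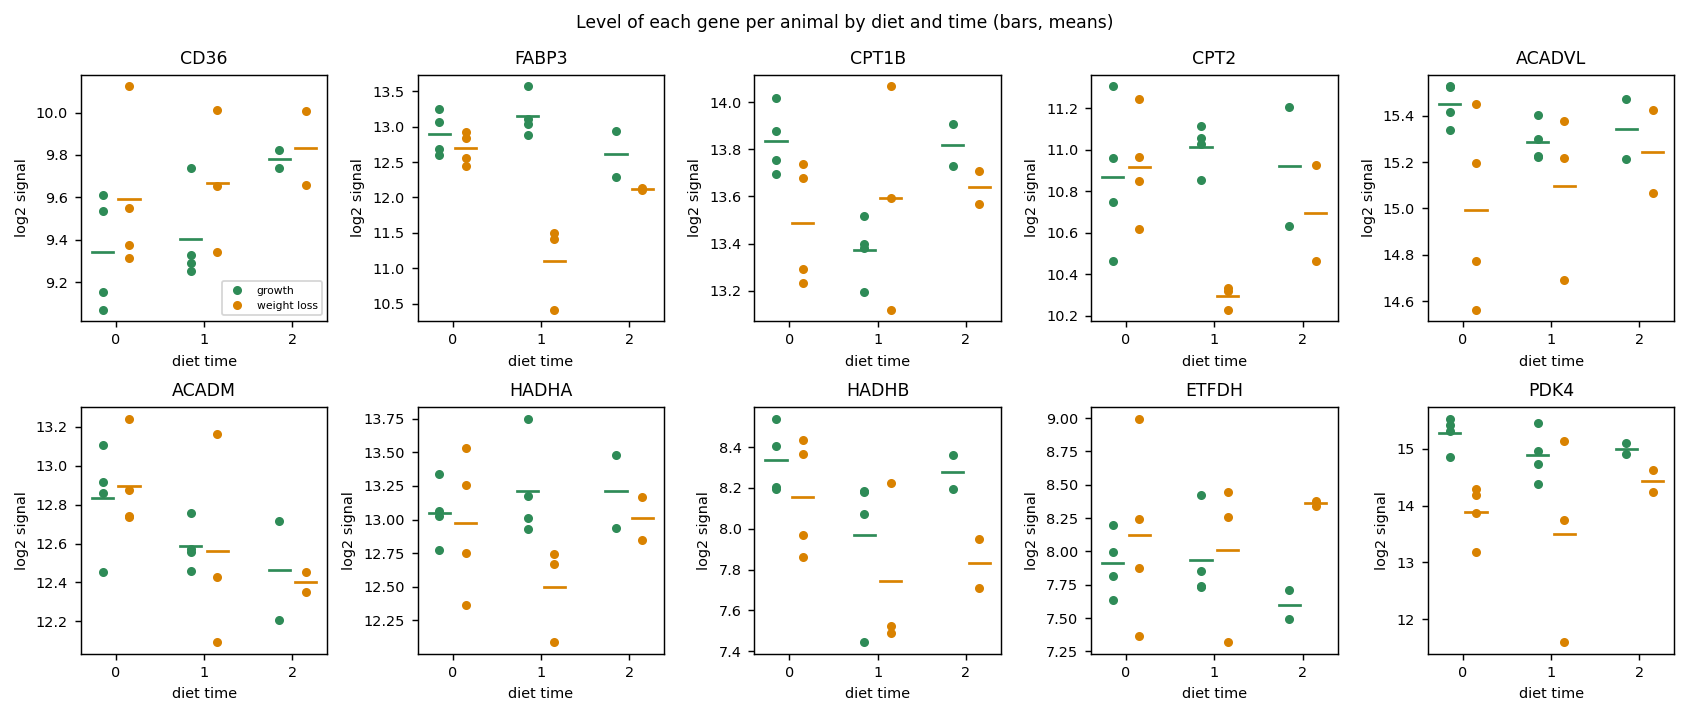
Level of each gene (log2 signal) in each animal at diet times 0, 1 and 2, growth in green and weight loss in orange, with a bar at each group's mean. At time 1 FABP3 and CPT2 show weight loss animals below all growth animals, and PDK4 shows 1 weight loss animal at 11.60.

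Muscle fibre markers moved with diet at time 1. Their mean over the skeletal muscle fibre list was 15.18 to 15.45 in weight loss animals and 16.66 to 17.30 in growth animals, with 5 of 8 lower and 1 higher (median -1.55), and that of slow fibre markers was 14.38 to 14.82 against 15.92 to 16.36, with 5 of 7 lower (median -1.36). Cycling cell markers were lower in 4 of 5 cases (median -0.58), myoblast and fetal fibre markers in 3 of 7 (median 0.060). Fibroblast and endothelial lists each had 3 lower and 0 higher, and the adipocyte list had 0 called in either direction and means of 7.86 to 8.50 against 8.05 to 9.87. The part of these shifts in the differences of CPT2, FABP3 and the genes that follow was not tested.

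The lists of other fuel genes at time 1 held mostly lower genes among those called, where 8.83% of all genes were lower and 9.57% higher. Of 20 genes of glucose uptake and glycolysis 12 were lower and 1 higher (median -0.84), led by PGK1 (-3.03), PGAM2 (-2.86) and LDHA (-2.80), all glycolytic enzymes, and 10 were lower with median centring and also without RL27. Respiratory chain genes were lower in 8 of 17 cases and 0 were higher (median -0.53), but only 3 without RL27 and 1 with median centring. Citric acid cycle genes were lower in 7 of 17 and 0 were higher (median -0.50), and 4 were lower without RL27 and 3 with median centring. Of 21 other mitochondrial oxidation genes 4 were lower and 0 higher (median -0.20), with PCCB, of propionyl-CoA carboxylase, at -1.23, and 1 was lower without RL27.

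In uptake and activation 2 of 13 were higher and 1 lower, with the synthetases ACSL4 at 1.64 and ACSL1 at -1.28. In the carnitine shuttle 1 of 9 was lower, CPT1A at -1.82, and 1 higher, SLC22A5, the carnitine importer of the cell membrane, at 0.68, which was not called without RL27 (0.56), RL24 (0.64), RG157 (0.67) or RG604 (0.50). Of 11 genes of pyruvate entry 2 were lower and 1 higher, with DLAT at -1.36. Peroxisomal genes had 2 higher and 2 lower of 13, regulators 2 and 2 of 21, and of 8 lipid droplet and triglyceride breakdown genes 0 were called.

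At time 0, 1 gene of all these lists was called, the peroxisomal oxidase ACOX2 (0.98), and it was not called when any of 7 single animals was left out (0.79 to 1.14). At time 2 limma called 0. Of the glycolysis list 10 of 20 had a diet difference that became lower from time 0 to time 1 (PGK1 -2.56, LDHA -2.47) and 2 one that became higher. Of all genes, 5.18% became lower and 5.38% higher. Without RL27 the glycolysis counts were 5 and 0, and the share of all genes is not given for that fit. The diet difference of CPT1A also became lower between these times, by -1.72.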

How the data were processed

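Muscle RNA was hybridised in pairs to 2-colour Agilent arrays, and the authors deposited the scanner output of each array, read with Agilent Feature Extraction (9.5.1 in the labels, 9.5.3.1 in the file headers). The files hold, per the file headers, a mean and a background intensity for each spot and dye, which were used here, and the deposited log10 ratio of the dyes, which was used in 1 alternative. Group, animal, dye and slide came from the labels.

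Background was corrected by normexp with an offset of 50, arrays were normalized by loess and then by A quantiles in limma (3.58.1, R 4.3.3), control spots had no weight, outlier spots (2 to 797 per array) were dropped, and spots of a probe were averaged. A probe was kept if well above background in at least 24 of 96 channels (15822 probes), and probes of a gene were averaged. Of 21475 probes 16752 matched a gene of the RefSeq table, whose assembly the files do not name, so no coordinates are given.

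Channels of 1 animal at 1 age were averaged. limma fitted all genes with the share of Cy5 as covariate. The fits of ages and of diet times had animal as a random block (correlation 0.311 in development and 0.144 in diet, from statmod 1.5.0). Each of these fits shared 1 estimate of the spread over its groups, and that of ages also had cross as a covariate. Crosses were compared with 1 value per animal and no block. Age was a factor before and at birth, and later the mean of each age was subtracted. P-values were adjusted by Benjamini-Hochberg over 14650 genes, with calls at 0.05. Intervals are 95%, from limma's moderated degrees of freedom. The fit of fetal against post-natal animals used 1 value per animal. Figures were drawn with Python 3.11.15. The number of arrays limits the precision, and 49.9% to 76.4% of spots per channel were well above background. The procedure was tested on simulated data.

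The 10 genes and the gene lists were chosen with earlier results of these data known. Beyond the 10 genes, the text names in each list up to 3 of the genes called with the largest difference, genes whose role is explained, and the 3 genes of the most similar profile. Alternatives were another background correction, normalization, filter or probe choice, within-array ratios, slide as a block, no dye covariate, each animal left out, and, chosen after seeing the data, single values or animals left out. No animal was in more than 1 of the fetal, newborn, post-natal and diet sets. The ketone body list is not reported here.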

Additional observations from a re-analysis of the deposited data

Results flagged for a closer look

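Among 120 sets of animals of 1 gene and group, 9 had an animal that lay far from the others for the spread of its group, which chance alone gives in about 1 of 20 sets. In 5 of these the animal was GP672 at 135 days, at 10.73 for ACADM, 15.81 for ACADVL, 9.18 for CD36 and 11.31 for CPT2, each the highest of its age, and at 9.64 for CPT1B, the lowest. The remaining 4 were ETFDH in GW179 at 3 months (7.55, the lowest), CPT2 in GP273 at 7 months (10.09, the lowest), and at diet time 1 in growth animals CD36 in RG166 (9.74, the highest) and HADHB in RG604 (7.44, the lowest).

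The diet difference differed between time 0 and time 1 for CPT2, by -0.79, and for FABP3, by -1.81, in limma's test of the interaction.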

How the results depend on the processing

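The 9 genes were called higher after birth in 9 of 9 cases whichever animal was left out, and from 195 days to birth the count stayed at 8. The corresponding ranges were 5 to 7 from 25 to 30 months (7 with all animals), 3 to 4 lower from birth to 3 months (3), 24 to 31 calls over all 9 successive ages (30), and in the diet series 0 to 1 at time 0 (0), 0 to 2 lower at time 1 (1), 0 to 1 for the change from time 0 to 1 (1) and 0 to 0 at time 2, as for both comparisons of crosses.

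A filter that required every channel to be well above background gave 5 of the 6 genes it left from 195 days to birth. With array-by-dye median centring, 1 gene was lower from birth to 3 months, 0 at diet time 1 and 0 for the diet change from time 0 to 1. That change also gave 0 with within-array ratios, plain background subtraction, no dye covariate, quantile normalization after loess, or the time 1 value of RL671 left out; with the last, diet time 0 gave 1. From 7 to 12 months ACADM went from 0.39 to -0.025 under median centring. The causes were not tested. Over all counts and alternatives, 283 values stayed within 1.5 times of the reported count and 20 did not.

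Median centring moved the median of all genes by more than 0.1 in 7 of 18 comparisons, with shifts from -0.27 to 0.46. Of 52 called differences of the 10 genes it kept the sign of 51, and the other scalings kept all 52. No paired analysis was possible because the replicate numbers only count the arrays of a group; this holds for pairing by replicate number alone, since repeated samples of an animal were tied by the animal block in the reported fits of ages and diet times, and the samples of an array by the within-array ratios, an alternative. The size of differences of genes near background depended on the background correction: plain subtraction gave 5.67 in place of 4.68 for PDK4 between fetal and post-natal animals.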
